A study of Homo sapiens with 18 samples.

Results

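The highest dose of fucoxanthin (FUCO), 2 µM given on free fatty acid (FFA), was compared with FFA alone in Hep3B cells. The comparison was defined by the sample titles and took 6 of the 18 libraries of the series, the 3 labelled FUCO-2 and the 3 labelled Model. FUCO is a carotenoid of brown seaweeds, and Hep3B is a human hepatoma line, so the cells are tumour cells and not primary hepatocytes. The series also held untreated cells (Con), FFA with 0.5 or 1 µM FUCO and FFA with Resmetirom, a thyroid hormone receptor beta agonist, with 3 libraries each. All 6 libraries compared here came from cells loaded with FFA, so any effect of FUCO was read on the FFA background, and no library had FUCO without FFA. The FFA concentration and the treatment times of these libraries were not given in the sources used here. Poly(A) RNA was sequenced, and the values are read counts per gene, given below as CPM, counts scaled to library size and composition.

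Cells meet damage to their proteins and membranes with a small number of transcriptional programmes. HSF1 raises cytosolic chaperones when proteins unfold, NRF2 raises glutathione and thioredoxin enzymes when electrophiles or oxidants modify its inhibitor KEAP1, and MTF1 raises metallothioneins when free zinc rises. Eukaryotic initiation factor kinases act through ATF4 on amino acid transport and synthesis, while a separate unfolded protein response governs chaperones of the endoplasmic reticulum (ER). In hepatocytes these programmes run beside lipid synthesis under SREBP factors and the secretion of plasma proteins.

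The 6 libraries held 16916688 to 18994381 counts, and 14557 genes passed the filter on low counts. On a principal component analysis of the 6 libraries the first component, 53.4% of the variance, separated FUCO-2 from the model, and the second, 19.5%, separated FUCO-2 replicate 1, at 20.4, from FUCO-2 replicates 2 and 3, at -12.0 and -9.72. Mitochondrial transcripts made up 5.28% of the counts of FUCO-2 replicate 1 and 6.33% to 6.82% of those of the other 5 libraries. Hepatocyte markers were abundant, with albumin (ALB) at 33619 to 34276 CPM in the model, and the 10 hepatocyte markers summed to 58840 to 59540 CPM in the model and 41330 to 45130 CPM in FUCO-2, with 8 lower. Of 8 leukocyte markers only LYZ was tested and it was lower by 0.44, the list summed to 12.6 to 18.1 CPM in the model and 10.8 to 13.5 CPM in FUCO-2, and CD163 and MARCO were at 0. Of 8 stellate cell markers 5 were tested and 0 called, with sums of 20.2 to 21.3 and 16.9 to 19.5 CPM and with ACTA2 and COL3A1 at 0. Of 6 endothelial markers 1 was tested and 0 called, with sums of 1.21 to 1.52 and 1.04 to 1.65 CPM and with CDH5, KDR and CLEC4G at 0. Of 5 cholangiocyte markers 4 were tested, SOX9 was higher by 0.56 and KRT19 lower by 0.39, and the sums were 336 to 359 and 285 to 388 CPM. The part of these markers in the results was not tested. In bulk RNA, fewer cells of a kind and less RNA per cell cannot be told apart.

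Genes were called differentially expressed (DEGs) at a Benjamini-Hochberg adjusted p under 0.05 in edgeR's quasi-likelihood test and an absolute log2 fold change over 1. FUCO-2 differed from the model in 233 genes, or 1.6% of those tested, and by the adjusted p alone in 2990 genes, or 20.5%. By the adjusted p alone, 10.8% of the tested genes were higher and 9.71% lower, and these shares are the background for each gene list below. In 36.3% of the tested genes the 3 FUCO-2 libraries lay all above or all below the 3 model libraries. Without Model replicate 3 the 2990 genes became 1972, with 995 higher in place of 1576, and without Model replicate 1 the higher genes numbered 1005. The 127 higher DEGs (0.872%) comprised 107 protein-coding genes, 16 long non-coding RNAs, 2 miRNA genes and 2 pseudogenes, and the 106 lower DEGs (0.728%) included 82 protein-coding genes and 19 long non-coding RNAs. The median log2 fold change of all tested genes was 0.01. The p-values measure the spread between the replicate libraries, which the study describes as biological replicates.

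**Figure D1:**
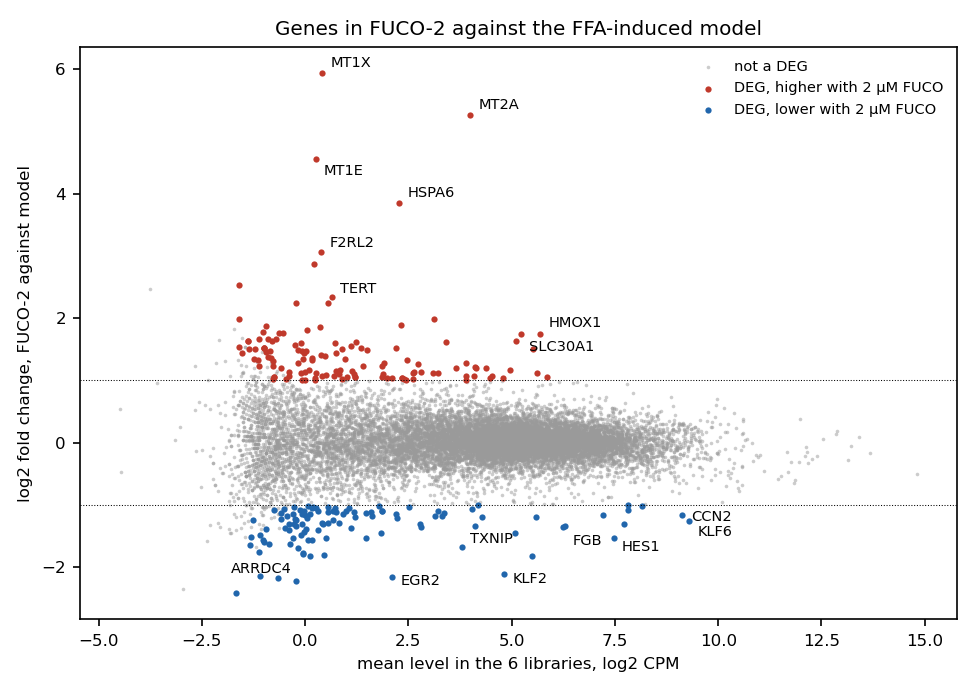
Log2 fold change of FUCO-2 against the model for each tested gene (y axis) against its mean level in the 6 libraries in log2 CPM (x axis), with DEGs in red (higher) and blue (lower) and dotted lines at a log2 fold change of 1 in either direction. MT1X, MT2A, MT1E and HSPA6 stand above all other DEGs, and KLF2, EGR2 and ARRDC4 lie among the lowest.

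Metallothioneins, small cysteine-rich proteins that bind zinc, cadmium and copper, rose most. MT2A measured 0.713, 1.17 and 0.542 CPM in the 3 model libraries and 30.5, 43.0 and 19.6 CPM in the 3 FUCO-2 libraries. The FUCO-2 libraries spread over a wide range but each stood far above each model library, and the log2 fold change was 5.26 (SE 0.33, adjusted p = 2.0e-10, edgeR). In untreated cells MT2A was at 0.0373 ± 0.0324 CPM (SD, n = 3). MT1X had 0, 0 and 2 counts in the model and 43, 65 and 34 counts in FUCO-2, so that the summed counts, scaled for depth, differed 72.7-fold (exact 95% interval 19.7 to 605.8, counting error only). MT1E had 1, 3 and 1 counts against 35, 63 and 26, a 25.4-fold difference (10.6 to 79.5). MT1A, MT1B, MT1F, MT1G, MT1H, MT1M and MT3 had at most 5 counts in any of the 6 libraries and were not tested. The metallothionein genes are close copies of each other, and how reads that fit several of them were counted was not given in the sources used here.

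SLC30A1, the zinc exporter of the plasma membrane, rose with them. It measured 16.3, 18.6 and 16.4 CPM in the model and 59.2, 65.4 and 46.7 CPM in FUCO-2, without overlap (log2 fold change 1.74, SE 0.15, adjusted p = 1.4e-08). SLC30A10, a manganese exporter, went the other way and fell by 0.53 on the log2 scale (adjusted p = 1.6e-05). MTF1 itself, the zinc sensor, lay at 11.7 to 12.3 CPM in the model and 9.68 to 14.3 CPM in FUCO-2 (log2 fold change -0.07, adjusted p = 0.746). Of the 6 tested members of the metallothionein and zinc export list, 4 were higher and 1 lower. The promoters of MT2A, MT1X and SLC30A1 are shown because these genes rose and are textbook carriers of metal response elements. Each line gives the 180 bases before the transcription start from RefSeq (GRCh38.p14), 5′ to 3′ on the gene's strand, with matches to TGCACNC or TGCGCNC on either strand in capitals. MT2A is chr16:56608404-56608583 on the plus strand, MT1X is chr16:56682290-56682469 on the plus strand and SLC30A1 is chr1:211579162-211579341 on the minus strand.
MT2A: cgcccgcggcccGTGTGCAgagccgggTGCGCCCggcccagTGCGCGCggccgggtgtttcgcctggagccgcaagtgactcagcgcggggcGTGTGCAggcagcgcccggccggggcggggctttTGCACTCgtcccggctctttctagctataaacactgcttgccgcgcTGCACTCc
MT1X: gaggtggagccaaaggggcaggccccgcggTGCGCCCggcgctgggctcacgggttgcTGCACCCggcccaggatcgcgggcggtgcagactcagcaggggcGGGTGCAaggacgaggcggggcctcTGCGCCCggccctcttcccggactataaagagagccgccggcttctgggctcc
SLC30A1: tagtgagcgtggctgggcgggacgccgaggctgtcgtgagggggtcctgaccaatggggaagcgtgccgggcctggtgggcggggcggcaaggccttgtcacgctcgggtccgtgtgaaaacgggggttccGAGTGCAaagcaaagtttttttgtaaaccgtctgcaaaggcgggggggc
MT2A held 6 matches in this stretch, MT1X 4 and SLC30A1 1. The motif is short, and 38.7% of the 11524 tested genes with a promoter entry held it within the 300 bases from 250 before to 50 after the start, against 42.7% of the 96 higher DEGs with an entry.

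**Figure D2:**
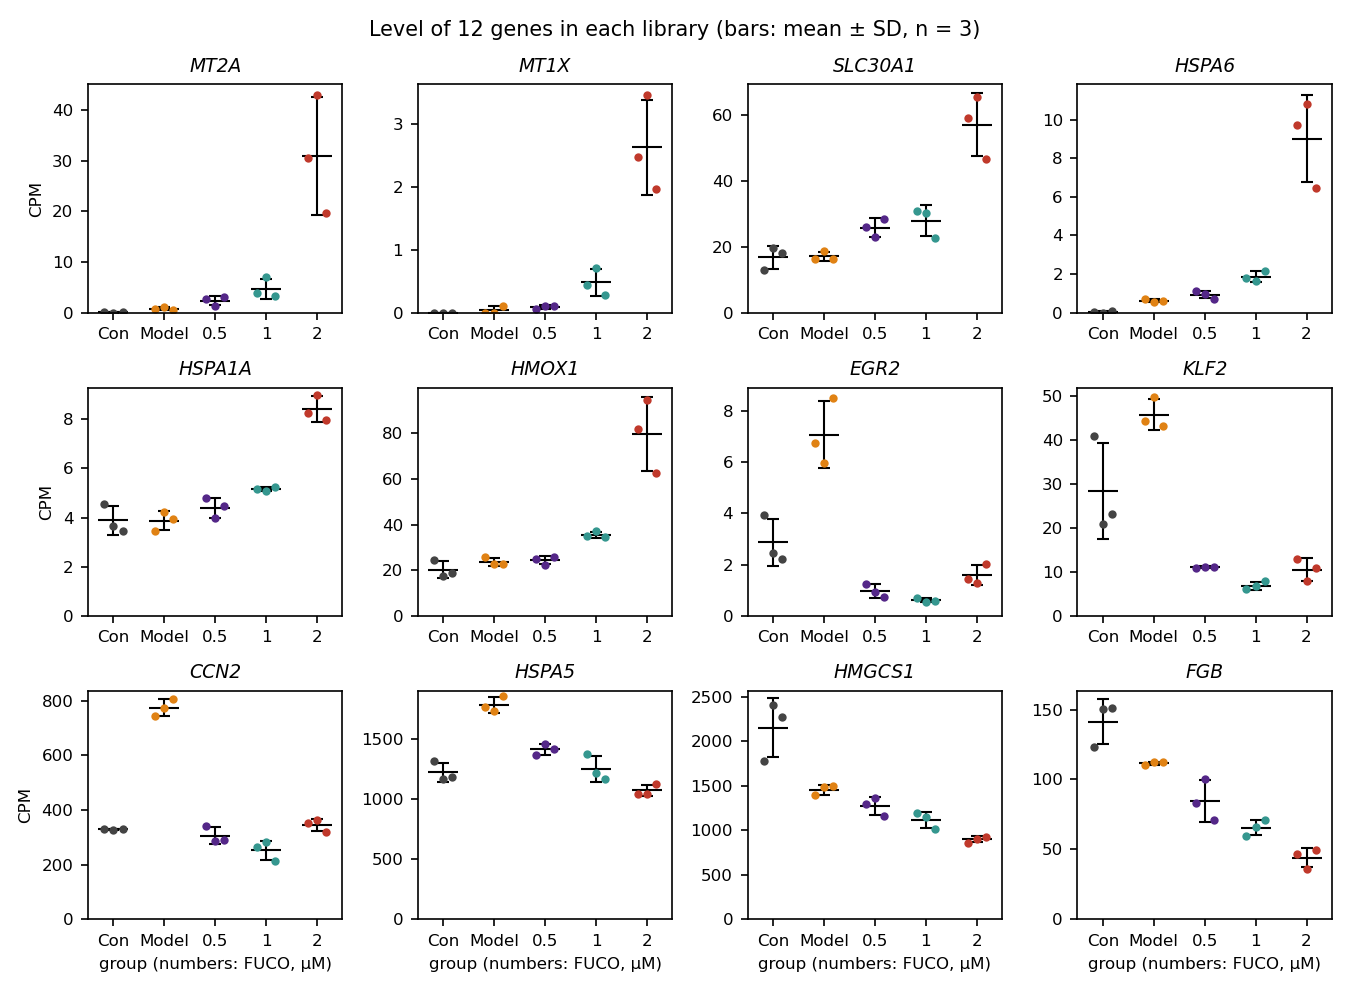
Level in CPM (y axis, from 0) of 12 genes in each library of the Con, Model and FUCO groups (x axis, numbers are µM FUCO on FFA), with points for libraries and bars for the mean ± SD of 3. MT2A, MT1X, SLC30A1, HSPA6, HSPA1A and HMOX1 are highest at 2 µM, HSPA5, HMGCS1 and FGB are lowest there, and EGR2, KLF2 and CCN2 are lower than the model at each dose.

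Cytosolic and mitochondrial chaperones rose as a group. Of 26 tested heat shock proteins and cochaperones, 20 were higher and 0 lower, with a median log2 fold change of 0.46. HSPA6, the strictly inducible HSP70 gene, measured 0.713, 0.556 and 0.596 CPM in the model and 9.73, 10.8 and 6.48 CPM in FUCO-2 (log2 fold change 3.84, SE 0.24, adjusted p = 2.0e-10). HSPA1A, the main inducible HSP70, measured 3.45, 4.23 and 3.95 CPM against 8.24, 9.0 and 7.98 CPM (1.12, SE 0.14, adjusted p = 4.1e-06). Neither gene's groups overlapped. HSPA1B, its near-identical neighbour, had at most 5 counts in any of these libraries, and how reads were divided between the pair cannot be told from the table.

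The abundant constitutive chaperones moved by smaller amounts. HSPH1, a nucleotide exchange factor for HSP70, rose from 57.4 to 66.1 CPM in the model to 106 to 140 CPM (log2 fold change 0.95, adjusted p = 1.6e-06). CHORDC1, an HSP90 cochaperone, rose by 0.81 on the log2 scale, FKBP4 by 0.73, HSP90AA1 by 0.71, HSPA8 by 0.60 and the mitochondrial chaperonin HSPD1 by 0.55. HSP90AA1 was at 730, 748 and 800 CPM in the model and at 1113, 1407 and 1197 CPM in FUCO-2. The small heat shock protein HSPB1, at 298 to 308 CPM in the model and 262 to 374 CPM in FUCO-2, did not pass the test (0.04, adjusted p = 0.86), and neither did HSPA4 or HSF2. HSF1 itself rose by 0.43 on the log2 scale (adjusted p = 0.0038). The 31 tested proteasome subunits gave 0 called members by edgeR, with a median of -0.03, although 2 had an unadjusted p under 0.05 and DESeq2 called 1 lower.

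The promoters of 4 of these genes are shown because heat shock elements, the inverted GAA units bound by HSF1, can be read in them. Each line is the 180 bases before the start (RefSeq, GRCh38.p14), with matches to GAANNTTC or TTCNNGAA in capitals, where neighbouring matches may share a unit. HSPA6 is chr1:161524360-161524539 on the plus strand, HSPA1A is chr6:31815363-31815542 on the plus strand, CHORDC1 is chr11:90223050-90223229 on the minus strand and HSPA8 is chr11:123062137-123062316 on the minus strand.
HSPA6: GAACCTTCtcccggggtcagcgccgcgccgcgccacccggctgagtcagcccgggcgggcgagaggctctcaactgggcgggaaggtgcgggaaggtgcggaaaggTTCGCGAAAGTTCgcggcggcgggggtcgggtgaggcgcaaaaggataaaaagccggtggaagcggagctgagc
HSPA1A: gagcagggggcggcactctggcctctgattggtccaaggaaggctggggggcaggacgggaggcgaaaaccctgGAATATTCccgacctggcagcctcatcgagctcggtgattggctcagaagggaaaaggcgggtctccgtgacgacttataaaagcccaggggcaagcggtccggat
CHORDC1: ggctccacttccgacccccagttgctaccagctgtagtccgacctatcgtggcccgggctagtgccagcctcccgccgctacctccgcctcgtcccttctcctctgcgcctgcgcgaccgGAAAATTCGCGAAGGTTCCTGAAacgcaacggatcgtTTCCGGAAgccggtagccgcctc
HSPA8: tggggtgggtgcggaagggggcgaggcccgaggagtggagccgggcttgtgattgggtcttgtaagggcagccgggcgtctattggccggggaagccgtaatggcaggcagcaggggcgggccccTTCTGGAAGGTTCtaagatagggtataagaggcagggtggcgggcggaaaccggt
The longer heat shock element, with 3 units in place of 2 at the same spacing, stood in the 300-base promoter of 5 of the 23 list members that had an entry, or 21.7%, and in 0.321% of all tested genes with an entry. The form with 2 units stood in 8 of the 23, or 34.8%, against 10% of all. Among the 96 higher DEGs with an entry, 1 held the longer form and 10 the shorter one (10.4%), so the higher DEGs as a whole held the shorter form at the share of all genes.

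NRF2 targets formed a second group of higher genes, with 20 of 28 higher, 0 lower and a median log2 fold change of 0.52. HMOX1, which breaks down haem, measured 25.7, 22.9 and 22.5 CPM in the model and 81.8, 94.8 and 62.4 CPM in FUCO-2, again without overlap (1.75, SE 0.14, adjusted p = 5.7e-09). GCLM, the modifier subunit of the first enzyme of glutathione synthesis, measured 19.8, 18.7 and 18.8 CPM against 40.8, 46.8 and 40.7 CPM (1.16, SE 0.15, adjusted p = 4.5e-06), and its catalytic partner GCLC rose by 0.61 on the log2 scale. SRXN1, which repairs peroxiredoxins, rose by 1.26, OSGIN1 by 1.21, the aldo-keto reductase AKR1B10 by 1.5 and the autophagy receptor SQSTM1 by 0.94. The cystine carrier SLC7A11 rose by 0.66 and thioredoxin reductase TXNRD1 by 0.58.

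Pentose phosphate enzymes differed. TKT rose by 0.53 on the log2 scale, whereas PGD lay at 243 to 251 CPM in the model and 230 to 249 CPM in FUCO-2 (-0.05, adjusted p = 0.69). NQO1, a classical target, lay at 4.51 to 5.52 CPM in the model and 5.99 to 7.45 CPM in FUCO-2, and its log2 fold change of 0.42 did not pass (adjusted p = 0.080). The ferritin genes FTL and FTH1, which store iron, did not pass either (adjusted p = 0.298 and 0.132). NFE2L2, the gene of NRF2, had a log2 fold change of 0.18 (adjusted p = 0.12). GCLM and TXNRD1 are shown with their antioxidant response elements, matches to TGACNNNGC on either strand in capitals, in the 180 bases before the start (RefSeq, GRCh38.p14), at chr1:93909431-93909610 on the minus strand and chr12:104215599-104215778 on the plus strand.
GCLM: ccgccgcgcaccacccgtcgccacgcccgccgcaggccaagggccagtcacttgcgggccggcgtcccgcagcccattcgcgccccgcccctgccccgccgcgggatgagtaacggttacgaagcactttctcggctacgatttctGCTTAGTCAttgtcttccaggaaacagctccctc
TXNRD1: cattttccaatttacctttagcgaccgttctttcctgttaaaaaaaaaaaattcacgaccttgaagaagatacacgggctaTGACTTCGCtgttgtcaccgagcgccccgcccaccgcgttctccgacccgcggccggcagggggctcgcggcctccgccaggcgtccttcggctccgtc
The motif stood in 4 of the 20 list members with a promoter entry (20%) and in 15.1% of all tested genes with one, so the list lay near the background.

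Genes of the integrated stress response rose in part. Of 24 tested, 11 were higher and 1 lower, or 2 lower without FUCO-2 replicate 3, and the median log2 fold change was 0.29. STC2, a secreted glycoprotein, measured 29.8, 31.0 and 31.8 CPM in the model and 75.6, 65.4 and 61.1 CPM in FUCO-2, without overlap (1.12, SE 0.09, adjusted p = 1.5e-08). DDIT4, an inhibitor of mTORC1, rose by 0.94 on the log2 scale, the amino acid transporter SLC7A5 by 0.80, the mitochondrial folate enzyme MTHFD2 by 0.55, CEBPB by 0.54, asparagine synthetase ASNS by 0.52 and the pseudokinase TRIB3 by 0.37. ATF4 and DDIT3, transcription factors at the centre of the response, did not pass the test. ATF4 lay at 756 to 792 CPM in the model and 711 to 783 CPM in FUCO-2 (-0.06, adjusted p = 0.55). DDIT3 had a log2 fold change of -0.25 (adjusted p = 0.115). The 1 lower member was PPP1R15A, the phosphatase subunit that ends the response, which fell by 0.44 (adjusted p = 1.5e-04). The amino acid response element TGATGNAA stood in 4 of the 20 members with a promoter entry (20%) and in 1.76% of all.

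Chaperones of the ER moved the opposite way to those of the cytosol. Of 19 tested genes of this list 0 were higher and 18 lower, with a median log2 fold change of -0.53. HSPA5, the ER HSP70 also known as BiP, measured 1764, 1734 and 1860 CPM in the model and 1044, 1046 and 1126 CPM in FUCO-2 (-0.74, SE 0.07, adjusted p = 2.2e-07). The FUCO-2 libraries lay below each model library and below the untreated mean of 1222 ± 79.4 CPM. The calcium-binding chaperone calreticulin, CALR, fell by 0.78, MANF by 0.87, SDF2L1 by 0.78, PDIA4 by 0.66 and HSP90B1 by 0.57. EDEM1 was the member that did not pass (-0.13, adjusted p = 0.195).

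**Figure D3:**
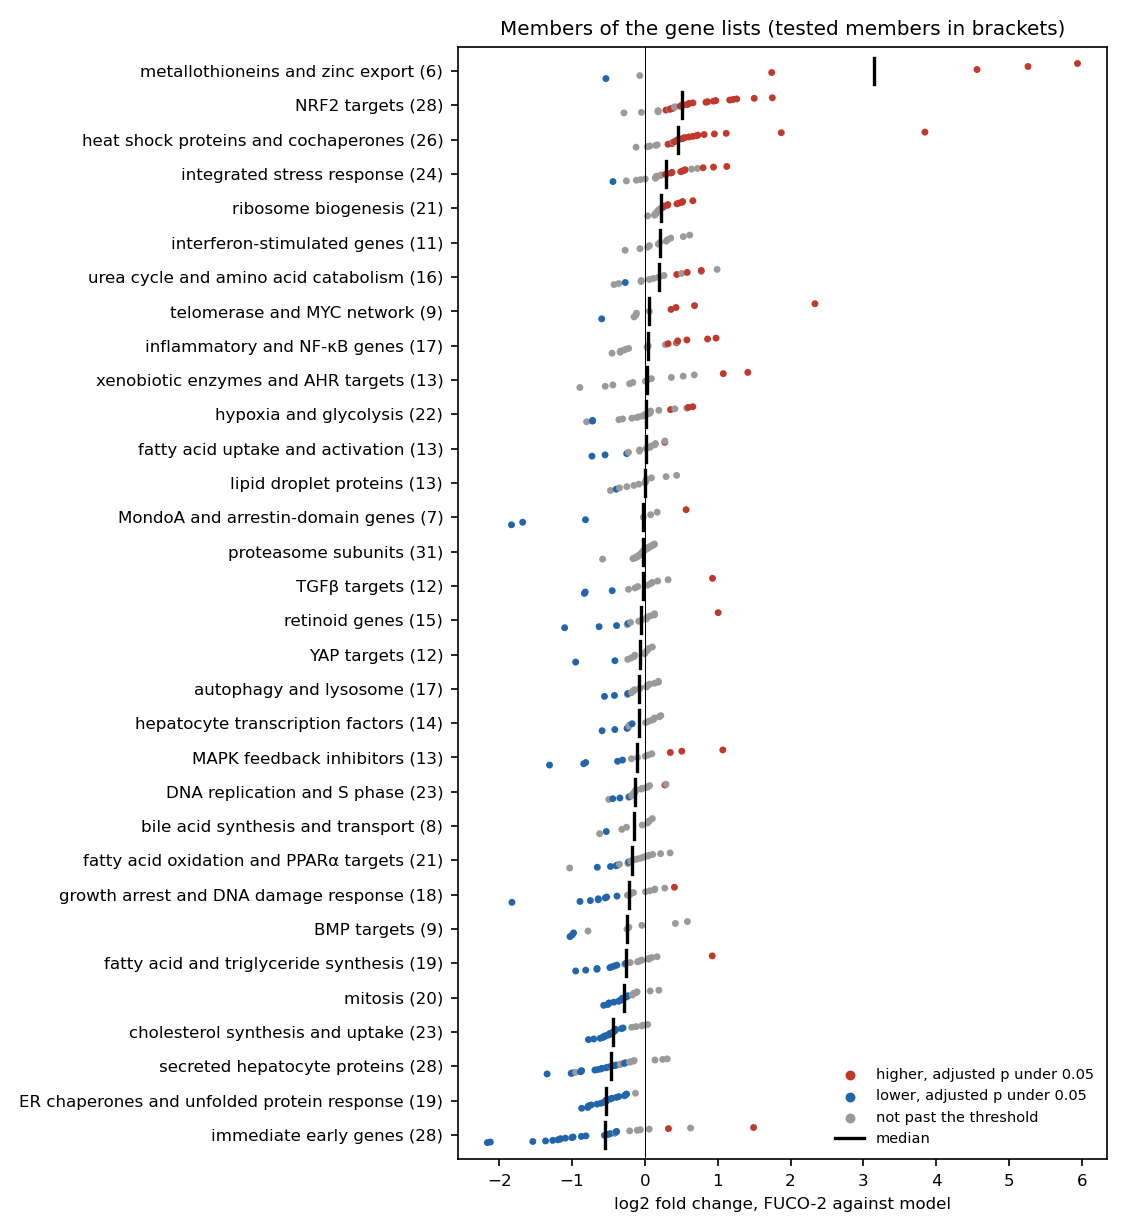
Log2 fold change of FUCO-2 against the model (x axis) for each tested member of the 32 gene lists (y axis, number of tested members in brackets), with red and blue points for members higher or lower at an adjusted p under 0.05, grey points for the others and a black bar at the list median. Metallothionein, NRF2, heat shock and integrated stress response genes lie to the right, and immediate early genes, ER chaperones, secreted proteins and cholesterol genes to the left.

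Most tested sterol synthesis genes fell. Of 23, 0 were higher and 18 lower, with a median of -0.43. HMGCS1, which makes HMG-CoA, measured 1391, 1485 and 1491 CPM in the model and 858, 901 and 926 CPM in FUCO-2, without overlap (-0.70, SE 0.10, adjusted p = 1.67e-05). FDPS, which makes farnesyl diphosphate, fell by 0.58 on the log2 scale and the sterol sensor partner INSIG1 by 0.56. SREBF2, the gene of the factor that controls this pathway, lay at 461 to 480 CPM in the model and 413 to 505 CPM in FUCO-2 (-0.04, adjusted p = 0.72). CYP51A1 and MSMO1 did not pass.

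Fatty acid genes changed less evenly. Of 19 tested genes of fatty acid and triglyceride synthesis, 9 were lower and 1 higher, with a median of -0.26, and the 9 became 5 without FUCO-2 replicate 2 and 5 without FUCO-2 replicate 3. The stearoyl-CoA desaturase SCD, at 4346, 4744 and 4332 CPM in the model, measured 2828, 2882 and 2795 CPM in FUCO-2 (-0.66, SE 0.09, adjusted p = 7.0e-06). The elongase ELOVL6 fell by 0.81, FADS2 by 0.66 and GPAM, which starts glycerolipid synthesis, by 0.95. FASN fell by 0.45 (adjusted p = 0.010), but its libraries were uneven, at 2422 CPM in FUCO-2 replicate 1 and at 1641 and 1521 CPM in replicates 2 and 3, and the call was lost without FUCO-2 replicate 2 or 3 and in DESeq2 on the groups compared. ME1, malic enzyme and also an NRF2 target, was the member that rose, from 35.2 to 38.9 CPM to 60.6 to 78.5 CPM (0.92, adjusted p = 4.5e-06). ACLY, ACACA and DGAT2 did not pass.

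On the uptake side the intracellular carrier FABP1 fell from 923, 904 and 881 CPM to 475, 562 and 600 CPM (-0.73, SE 0.11, adjusted p = 4.1e-05). CD36, the fatty acid translocase that the study followed, was low but passed the filter, at 1.81, 1.06 and 1.68 CPM in the model and 1.67, 1.49 and 2.37 CPM in FUCO-2. The groups overlapped, and the log2 fold change of 0.28 had an SE of 0.36 (adjusted p = 0.635). Of the 13 tested uptake and activation genes 3 were lower and 1 higher, and the higher one, SLC27A4, had an adjusted p of 0.0484 and lost the call in 11 of 16 other settings, among them without Model replicate 1, 2 or 3 or FUCO-2 replicate 1 or 2, which left 0 higher genes. PLIN2, the coat protein of lipid droplets, fell from 817 to 893 CPM to 575 to 725 CPM (-0.39, adjusted p = 9.4e-04), still above the untreated mean of 398 ± 12 CPM. It was the 1 called gene of 13 lipid droplet genes, of which 2 were lower without FUCO-2 replicate 1 and 1 was higher without FUCO-2 replicate 3. Among 21 genes of fatty acid oxidation and PPARα targets 5 were lower and 0 higher, with CPT1A, the mitochondrial gatekeeper, lower by 0.39 and PDK4 by 0.47. The 5 became 2 without Model replicate 3, FUCO-2 replicate 1 or FUCO-2 replicate 2.

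Most tested plasma protein genes fell. Of 28 tested secreted hepatocyte proteins 17 were lower and 0 higher, with a median of -0.46. The fibrinogen chain FGB, a part of the clot, measured 110, 112 and 112 CPM in the model and 46.6, 36.1 and 49.5 CPM in FUCO-2 (-1.34, SE 0.11, adjusted p = 1.5e-08), and the other fibrinogen chains FGG and FGA fell by 1.01 and 0.87. Haemopexin, HPX, fell by 0.99, transferrin, TF, by 0.60 and the fetal protein AFP by 0.59. ALB fell to 21943, 23701 and 25696 CPM (-0.51, adjusted p = 1.9e-04). Prothrombin, F2, at 168 to 180 CPM in the model and 194 to 229 CPM in FUCO-2, did not pass (0.24, adjusted p = 0.12). Of 14 hepatocyte transcription factors 5 were lower and 0 higher, and ONECUT1 fell most, by 0.59. That count was 2 without Model replicate 2 or 3, and 3 without Model replicate 1 or FUCO-2 replicate 3.

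Immediate early genes, which respond to growth factors, serum and stress within minutes, stayed below the model at 2 µM. Of 28 tested, 20 were lower and 2 higher, with a median of -0.54. KLF6 measured 818, 982 and 859 CPM in the model and 339, 388 and 379 CPM in FUCO-2 (-1.27, SE 0.10, adjusted p = 3.3e-09). HES1, a Notch target, fell from 263, 260 and 266 CPM to 101, 72.4 and 97.6 CPM (-1.54, SE 0.13, adjusted p = 1.5e-08). For both genes the groups were far apart. CITED2 fell by 1.36 on the log2 scale, ATF3 by 1.16, CCN1 by 1.09, JUN by 0.81, FOS by 0.55 and EGR1 by 0.53. The 2 that rose were IER5 and FOSL1, an AP-1 subunit that measured 0.987, 1.78 and 1.68 CPM in the model and 4.72, 4.84 and 2.95 CPM in FUCO-2 (1.49, SE 0.30, adjusted p = 9.2e-04). IER5 was close to the threshold (0.32, adjusted p = 0.0445), and 1 gene was higher without any one of Model replicates 1, 2 and 3 or FUCO-2 replicates 1 and 2. JUNB, KLF4 and SRF did not pass.

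Neighbouring regulatory genes shared this direction in part. DUSP1, the phosphatase that switches off p38 and JNK, fell from 277, 315 and 306 CPM to 134, 102 and 127 CPM (-1.31, SE 0.10, adjusted p = 2.4e-09). Of 13 feedback inhibitors of MAP kinases 5 were lower and 3 higher, the higher ones being SPRY4, SPRED1 and SPRED3, and without Model replicate 3 the counts were 3 and 1. Without FUCO-2 replicate 2 the higher count was also 1. Among 9 BMP targets the HLH inhibitors ID2, ID4 and ID1 fell by 1.03, 1.00 and 0.98, and 0 were higher. Fitting the replicate number as a block on the 2 groups alone raised the 3 to 5. Growth arrest genes gave 8 lower and 1 higher of 18, led by PLK2, which fell from 64.4 to 73.6 CPM to 17.7 to 22.6 CPM (-1.82, adjusted p = 9.85e-09), followed by GADD45B (-0.89) and BTG1 (-0.64). Without FUCO-2 replicate 2 the 8 became 5. CDKN1A, a p53 target that stops the cell cycle, fell by 0.52 (adjusted p = 0.016), while MDM2, another p53 target, had a log2 fold change of 0.01 (adjusted p = 0.95).

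TXNIP and ARRDC4, which limit glucose uptake and are controlled by the glucose sensor MondoA, fell by 1.68 and 1.83 on the log2 scale, and their list of 7 had 3 lower and 1 higher member. TXNIP measured 21.2, 17.3 and 24.7 CPM in the model and 6.68, 3.73 and 9.49 CPM in FUCO-2. TGFβ targets gave 3 lower and 1 higher of 12, with TGIF1 lower by 0.82. Without FUCO-2 replicate 3 there were 2 higher. The 22 hypoxia and glycolysis genes gave 3 higher and 2 lower, and 4 lower with the block on the 2 groups alone.

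Inflammatory genes differed between the FUCO-2 libraries themselves. The list median relative to the model mean was -0.35 in FUCO-2 replicate 1, 0.60 in replicate 2 and -0.45 in replicate 3, on the scale of log2(CPM + 0.5). CXCL8, the neutrophil chemokine, measured 212, 303 and 230 CPM in the model and 122, 341 and 125 CPM in FUCO-2. CXCL2 measured 40.7, 39.7 and 45.1 CPM against 17.7, 63.7 and 20.1 CPM. For both genes FUCO-2 replicate 2 was above each model library and the other two FUCO-2 libraries were below each of them. The log2 fold change of CXCL8 was -0.34 with an SE of 0.29 (adjusted p = 0.44), and TNFAIP3, CXCL1, CXCL3 and NFKBIA showed the same split.

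With all libraries 6 of the 17 tested inflammatory genes were higher and 0 lower. Without FUCO-2 replicate 2 the counts were 3 higher and 8 lower, and without Model replicate 3 they were 3 and 0. With no filter on low counts 4 were lower, and with the block on the 2 groups alone 2 were lower. The higher ones were BIRC3 (log2 fold change 0.98), LCN2, NFKB2 (0.58), RELB, ICAM1 and NFKB1, mostly subunits and targets of NF-κB. NFKB2 measured 53.6, 59.6 and 48.9 CPM in the model and 85.5, 86.2 and 69.9 CPM in FUCO-2, with each FUCO-2 library above each model library. Transcripts of CCL2 and TNF had 0 counts in the 6 libraries, IL6 at most 2 and IL1B at most 5, so these were not tested. The 11 tested interferon-stimulated genes gave 0 called members by edgeR and 0 by DESeq2, with 2 at an unadjusted p under 0.05, or 1 higher without Model replicate 1 or FUCO-2 replicate 3, and their median was 0.20.

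**Figure D4:**
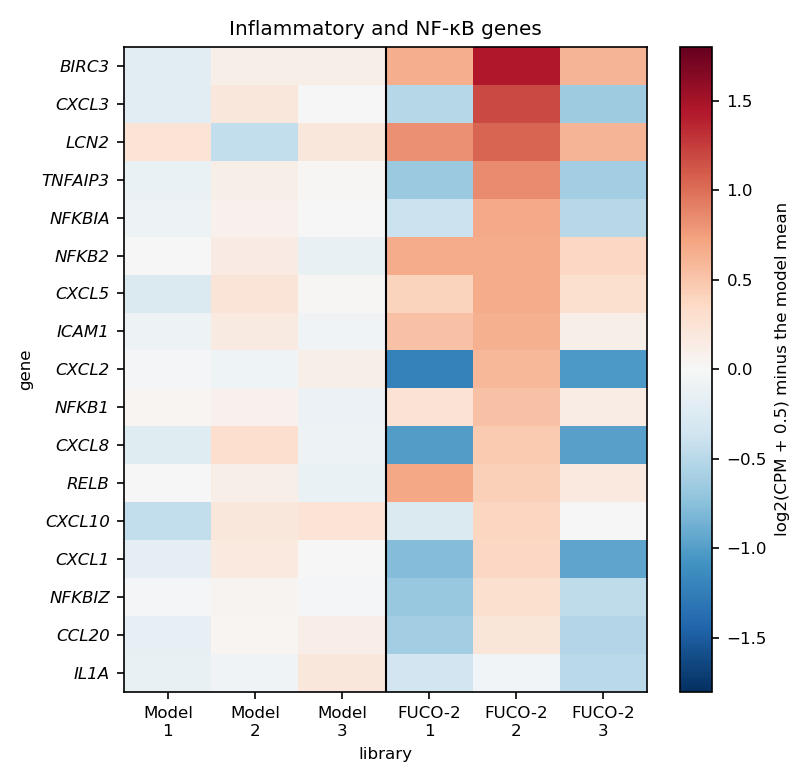
Level of the 17 tested inflammatory and NF-κB genes (y axis) in each of the 6 libraries (x axis), as log2(CPM + 0.5) minus the mean of the model libraries (colour, red above and blue below). FUCO-2 replicate 2 is red for nearly all genes, whereas replicates 1 and 3 are blue for CXCL8, CXCL1, CXCL2, CCL20, TNFAIP3 and NFKBIZ and red for BIRC3, LCN2 and NFKB2.

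Genes of mitosis were lower by small amounts, 13 of 20 with 0 higher and a median of -0.29. MKI67, the proliferation marker, measured 136, 116 and 129 CPM in the model and 87.1, 86.2 and 94.1 CPM in FUCO-2 (-0.51, SE 0.08, adjusted p = 1.4e-04), and KIF20A, AURKB and PLK1 fell by 0.57, 0.50 and 0.43. Replication genes gave 3 lower and 1 higher of 23, but the lower count was 1 without Model replicate 3 or FUCO-2 replicate 2 and in edgeR or DESeq2 on the groups compared, and 5 without FUCO-2 replicate 1 and in DESeq2 on all libraries. The higher one, MCM10 (0.27, adjusted p = 0.024), lost its call in 7 of 16 alternatives, among them those without Model replicate 2 or 3 or FUCO-2 replicate 2 or 3. Ribosome biogenesis factors went the other way, with 9 of 21 higher and 0 lower, led by RRP12 (0.66) and BOP1 (0.52), a count that was 4 without Model replicate 1 and 5 without FUCO-2 replicate 2. TERT, the catalytic subunit of telomerase, rose from 0.439, 0.890 and 0.217 CPM to 2.76, 3.19 and 1.85 CPM, and ODC1, the first enzyme of polyamine synthesis, by 0.43 on the log2 scale. Both belong to a list of 9 telomerase and MYC network genes with 4 higher and 1 lower.

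Among xenobiotic genes the aryl hydrocarbon receptor targets CYP1A1 and AHRR were the 2 of 13 that rose. CYP1A1 went from 11.9, 11.6 and 9.37 CPM to 22.3, 22.9 and 24.2 CPM (1.08, SE 0.26, adjusted p = 0.0048), and AHR itself did not pass (0.09, adjusted p = 0.49). Of 15 retinoid genes, 4 were lower and 1 higher. RARB, a receptor that retinoic acid itself induces, fell by 1.10, and BCO2, the enzyme that cleaves carotenoids at an eccentric bond, rose from 0.556 to 0.658 CPM to 1.06 to 1.44 CPM (1.01, adjusted p = 0.018). The BCO2 call was lost in DESeq2 and without Model replicate 2 or FUCO-2 replicate 1, and the 4 lower genes became 2 without FUCO-2 replicate 2. Autophagy and lysosome genes gave 3 lower and 0 higher of 17, or 1 lower without Model replicate 3. Urea cycle and amino acid genes gave 3 higher and 1 lower of 16, or 1 higher without FUCO-2 replicate 3 and 0 lower without Model replicate 1 or 3 or FUCO-2 replicate 2. Bile acid genes gave 1 lower of 8, or 2 with no filter, with the block on the 2 groups alone and in edgeR or DESeq2 on those groups. YAP targets gave 2 lower of 12, with CAVIN2 lower by 0.95, or 1 lower without Model replicate 2 or FUCO-2 replicate 3. This list leaves out CCN1 and CCN2, which were counted with the immediate early genes and fell by 1.09 and 1.17. With the block on the 2 groups alone, 1 gene was higher in place of 0 among each of the fatty acid oxidation, lipid droplet, secreted protein, hepatocyte transcription factor and mitosis lists, and 2 were higher in place of 1 among the replication genes and the TGFβ targets. The same fit gave 2 lower in place of 1 among the integrated stress response, lipid droplet and urea cycle genes, and 1 lower in place of 0 among the xenobiotic genes. The lower xenobiotic gene was CYP3A7 (-0.89, adjusted p = 0.071 in the reported edgeR fit). It also passed with no filter, in edgeR on the groups compared, in DESeq2 on all libraries and without FUCO-2 replicate 3.

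The remaining genes of large change fell in no list. F2RL2, the thrombin receptor PAR3, rose from 0.110, 0.334 and 0.379 CPM to 1.73, 2.87 and 2.43 CPM (3.07, SE 0.38, adjusted p = 4.5e-06), and the long non-coding RNA LUCAT1 rose by 2.87 on the log2 scale. SH3RF3, a RING finger ubiquitin ligase, rose from 2.80, 4.06 and 3.74 CPM to 16.6, 14.6 and 10.6 CPM, and the neutral amino acid transporter SLC6A15 from 1.75, 3.0 and 1.62 CPM to 8.81, 7.35 and 7.52 CPM. The laminin chain LAMA4 rose by 1.8. On the falling side, RNASE4, a secreted ribonuclease, fell by 1.81, and it shares its locus and first exons with angiogenin (ANG), which fell by 1.31, so their reads were not independent. AGR2, a disulfide isomerase of the ER, fell by 1.53, the prostaglandin receptor PTGER3 by 1.53, the glutamate receptor subunit GRIN3A by 1.57 and the sodium channel SCN8A by 1.45.

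The 2 µM libraries were also set against the 1 µM libraries directly, a difference that leaves out the model libraries, although they entered the fit's estimate of the spread. FUCO-2 differed from FUCO-1 in 84 genes, or 0.577% of those tested, of which 78 were higher (0.536%) and 6 lower (0.0412%). By the adjusted p alone 6.3% of all genes differed, 4.07% higher and 2.23% lower. The 6 lower genes ranged from 0 without FUCO-2 replicate 2 to 12 without FUCO-2 replicate 1, and numbered 10 without FUCO-1 replicate 2 and 3 without FUCO-1 replicate 3. MT2A averaged 4.72 ± 2.01 CPM at 1 µM and 31.0 ± 11.7 CPM at 2 µM (log2 fold change 2.72, SE 0.25, adjusted p = 2.2e-07), and HSPA6 averaged 1.86 ± 0.275 CPM against 9.01 ± 2.25 CPM (2.27, adjusted p = 2.1e-07). All 4 metallothionein and zinc export genes that rose against the model, 16 of 26 heat shock genes and 10 of 28 NRF2 targets were higher at 2 µM than at 1 µM, and none of these 3 lists had a lower member. HMOX1 averaged 35.5 ± 1.29 CPM at 1 µM and 79.7 ± 16.3 CPM at 2 µM.

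Integrated stress response genes and immediate early genes were higher at 2 µM than at 1 µM as well, 16 of 24 and 21 of 28, with 0 lower in each. GDF15, a stress cytokine, measured 274, 319 and 289 CPM in the model, averaged 143 CPM at 1 µM and measured 358, 382 and 238 CPM at 2 µM, so that it differed from 1 µM (1.20, adjusted p = 6.25e-05) but its test against the model did not pass (0.15, adjusted p = 0.54). ATF3 averaged 39.4 CPM at 1 µM and measured 75.5, 98.1 and 101 CPM at 2 µM (1.21, adjusted p = 3.7e-06), still below its 185, 238 and 189 CPM in the model. ANKRD1, a YAP target, and DUSP5 lay below the model at 1 µM and overlapped it at 2 µM, with differences between the doses of 1.71 and 1.38 on the log2 scale. EID3 was higher at 2 µM than at 1 µM by 3.08, but at 2 µM it did not pass against the model (0.37, adjusted p = 0.34, edgeR). It lies within TXNRD1, so that reads of the larger gene may be among its counts.

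Secreted proteins, cholesterol genes and mitotic genes were lower at 2 µM than at 1 µM in 11 of 28, 9 of 23 and 7 of 20 members, with 0 higher in each. ER chaperones were lower in 5 of 19 and higher in 1, DNAJB9. FGB averaged 65.4 ± 5.46 CPM at 1 µM and 44.1 ± 7.06 CPM at 2 µM (-0.57, adjusted p = 0.0037). KLHDC7A was the DEG with the largest fall that met the naming rule. That rule asked for 1 CPM or more on average in the FUCO-2 and model libraries and no overlap between the doses. KLHDC7A went from 1.43 CPM at 1 µM to 0.518, 0.532 and 0.636 CPM at 2 µM (-1.33, adjusted p = 0.018). Against 0.5 µM, 157 genes, or 1.08%, were DEGs, 109 higher (0.749%) and 48 lower (0.33%), and the 48 became 28 without FUCO-2 replicate 2 and 31 without FUCO-0.5 replicate 2.

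List medians against the model at 0.5, 1 and 2 µM, which share the 3 model libraries, were set side by side. The lists described here took 3 courses, while mitosis, for one, took another, at 0.16, -0.04 and -0.29. NRF2 targets stood at 0.04, 0.24 and 0.52 and heat shock genes at 0.17, 0.16 and 0.46. ER chaperones stood at -0.30, -0.39 and -0.53, and secreted proteins at -0.16, -0.14 and -0.46. Integrated stress response genes stood at -0.37, -0.16 and 0.29, and immediate early genes at -0.99, -1.23 and -0.54. The first pair was highest and the second lowest at 2 µM, the integrated stress response median lay below 0 at the lower doses and above 0 at 2 µM, and the immediate early median was closest to the model at 2 µM.

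**Figure D5:**
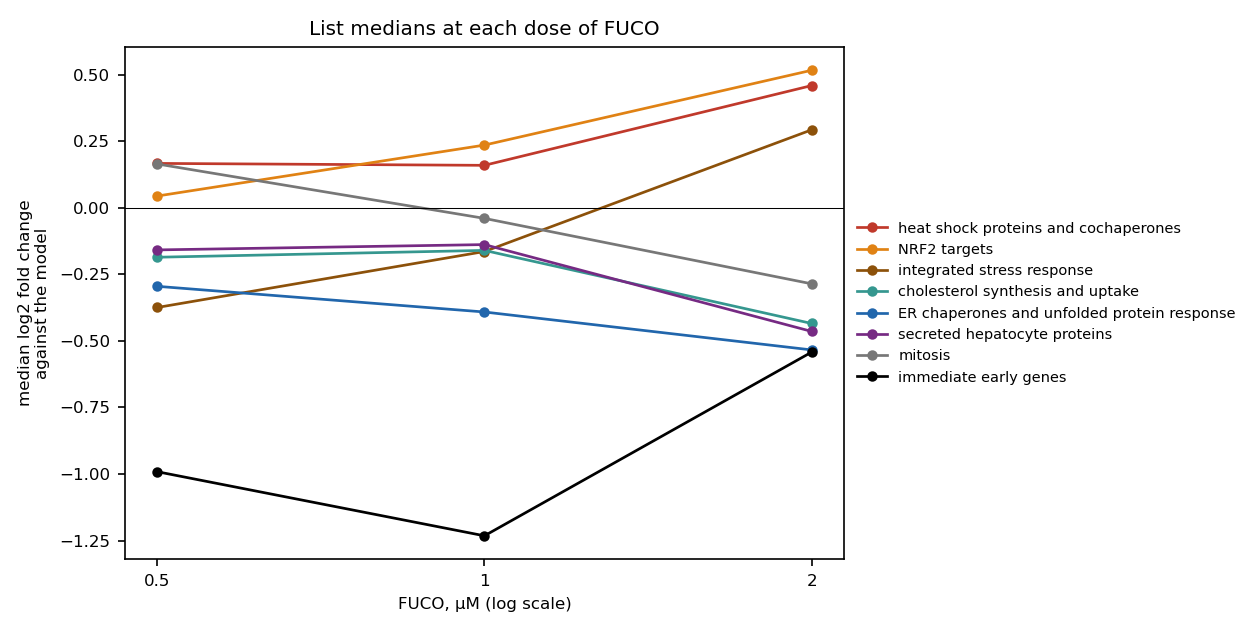
Median log2 fold change against the model (y axis) of the tested members of 8 gene lists at 0.5, 1 and 2 µM FUCO (x axis, log scale), each dose with 3 libraries and the same 3 model libraries. The immediate early median is -1.23 at 1 µM and -0.54 at 2 µM, and the integrated stress response median crosses 0 between 1 and 2 µM.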

How the data were processed

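Poly(A) RNA of 18 Hep3B libraries was sequenced, and the authors deposited whole-number read counts per gene symbol in 1 table, made with fastp, STAR, GRCh38.p14, a GENCODE annotation and featureCounts per the paper's methods. The strand setting and the treatment of multiply mapped reads were not given in the sources used here. The deposited counts were tested with edgeR 4.0.16 in R 4.3.3. All 18 libraries were fitted with 1 term for each of 6 groups after filterByExpr and TMM scaling, and the quasi-likelihood test was followed by Benjamini-Hochberg adjustment over 14557 genes. The SE of a log2 fold change was its size divided by the square root of F. Library totals ran from 16916688 to 23083498 counts, and intervals of count ratios cover counting error only.

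The gene lists and members were chosen with earlier results of these data known. Genes were named as the 12 largest rises and 12 largest falls among DEGs that averaged 1 CPM or more in the 6 libraries and whose groups did not overlap. In each list the DEGs were named, and where they were fewer than 4, members of smallest adjusted p filled the list up to 4. The genes the study measured and up to 6 of the largest rises and falls against FUCO-1 were added. Other members, among them the regulators, were named after their values were seen, and some genes that met the rule were left unnamed. Deviations of same-numbered FUCO-2 and model libraries had correlations of 0.169, 0.142 and 0.136, against -0.139 to -0.008 for differently numbered ones. This link came from the data and not from the labels. Larger correlations arose without a shared number, up to 0.385 between FUCO-2 replicate 1 and FUCO-0.5 replicate 3. The reported fit had no replicate block, and values with the block are given where they moved a count. Alternatives were other scaling factors and filters, a replicate block, DESeq2 1.42.0, fits without the other groups, glmTreat and leaving out each library. Promoters came from RefSeq, and motif letters were searched on both strands. A few genes that met the rule are not reported here.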

Additional observations from a re-analysis of the deposited data

How the results depend on the processing

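The naming rule selected 131 genes that were called against the model, not all of them named above. Of these, 108 kept an adjusted p under 0.05 in each alternative run counted, 23 lost it in at least 1 and 0 changed sign. The glmTreat run was not counted, nor was a run that filtered the gene out or gave it no adjusted p. MT1X thus had 15 runs and CRYAB 12, where EGR2 had 16. Of 27 not called, 11 passed in at least 1 alternative. Neither called, ACSL1 changed sign to 0.0504 without Model replicate 2 (range -0.145 to 0.0504 over left-out libraries), and ACACA to -0.108 without FUCO-2 replicate 2 (-0.108 to 0.142). A test against a log2 fold change of 1 (glmTreat) left 14 DEGs against the model (10 higher, 4 lower), 3 against FUCO-1 (3 and 0) and 9 against FUCO-0.5 (9 and 0). With no fold threshold there were 2990 (1576 and 1414), 917 (593 and 324) and 2200 (1227 and 973). With at least 10 counts in every library, which tests fewer genes, there were 106 (55 and 51), 45 (44 and 1) and 73 (59 and 14), and 1 metallothionein list gene was higher in place of 4. The lower DEGs against FUCO-1 numbered 15 with no filter, 10 with the replicate block and 1 by DESeq2 on the groups compared, which also gave 103 against FUCO-0.5 (25 lower); the cause was not tested. Leaving out 1 library gave 196 to 275 DEGs against the model (99 to 148 higher, 91 to 127 lower) and 1972 to 2808 genes by the adjusted p alone (995 to 1511 higher, 974 to 1383 lower). It gave 56 to 102 against FUCO-1 (53 to 94, 0 to 12) and 126 to 203 against FUCO-0.5 (96 to 139, 28 to 64). The replicate block gave 237 DEGs against the model in all libraries and 212 in the 2 groups alone, where 3662 genes (1876 higher, 1786 lower) passed the adjusted p. Same-numbered FUCO-2 and FUCO-1 or FUCO-0.5 libraries shared only their numbers, with correlations from -0.305 to 0.242. Differently numbered ones had correlations from -0.359 to 0.385.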
